A study of Mus musculus with 94 samples.

Results

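Tubular segments of entospletinib-treated kidneys on day 1 after renal ischemia-reperfusion injury (IRI), group code I1E, were compared with tubular segments of uninjured kidneys, group code CTRL. The comparison describes the change on day 1 after injury with the drug present. Effects of injury and of the drug cannot be told apart in it, since no group was uninjured and known to have received the drug. Segments were chosen by the PanCK tag and the group code in their titles, and those with fewer than 200000 counts were left out. This gave 12 of the 94 segments of the series, 6 per group, with 4 from the cortex and 2 from the medulla in each. One cortical I1E segment with 125254 counts was left out, and its region was represented by a second segment with 2688479 counts.

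All mice were male C57BL/6. The I1E kidneys came from mice that received the SYK inhibitor entospletinib before unilateral IRI and were collected 1 day later. By the study's methods, the drug was given as a single intraperitoneal injection to mice killed on day 1, and the vehicle was DMSO. The labels and the methods give different intervals between injection and ischemia. The controls were contralateral uninjured kidneys according to the labels, while the methods also allow kidneys of healthy mice, and whether control mice received the drug is not given in the sources used here. Age is not given either. The vehicle-treated kidneys on day 1, group code I1V, received vehicle in place of the drug and are set beside I1E below. Each group had 2 tissue sections, told apart by the label prefixes E1 and E2 and called section 1 and section 2 here. The labels do not say in words that each section is a different mouse, so the spread between sections may be in part technical. Each section contributed 2 cortical regions and 1 medullary region. Within a region, the tubular segment was the area positive for pan-cytokeratin, with or without CD10. Formalin-fixed, paraffin-embedded tissue was probed with the GeoMx Mouse Whole Transcriptome Atlas, in which barcodes released by UV light are counted by sequencing.

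Tubular cells reabsorb most of the filtrate and depend on oxidative metabolism, which makes them a main site of damage when blood flow stops. After ischemia, injured tubular cells lose their brush border, switch off transport genes, and turn on stress, adhesion, and repair genes. SYK is a tyrosine kinase that carries signals from immune receptors, mainly in leukocytes, and entospletinib blocks its kinase activity. The files list 20175 probes by identifier without gene names, and no table used here pairs them. Values are therefore given per probe, 2 probes that rose and 2 that fell are named, and neither gene functions, sequences, nor cell type markers are reported.

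The 12 segments held between 2226395 and 11699181 counts, and each of the 20175 probes had at least 1 count in every segment. A count does not show that a probe lay above background. The study set a limit of quantification from negative probes and removed genes with a low detection rate. No background limit was applied here. Section sums were 9404235 and 17407808 counts in controls and 16598915 and 25154451 counts in I1E. Medullary regions supplied 51.3% and 37.3% of the counts of the control sections and 60.9% and 46.5% of those of the I1E sections. Cortex and medulla were therefore also compared separately. Both checks of the labels used lists of probes called in other sections. The first list, with 32 medulla-higher and 131 cortex-higher probes, came from the 8 tubular sections of days 7 and 14. A region score was taken as the mean log2 of CPM (counts scaled to a common total, plus 1) of the medulla-higher probes minus that of the cortex-higher probes. Control medulla scored 1.94 in section 1 and -1.76 in section 2, I1E medulla scored 0.49 and 0.17, and the 8 cortical segments of both groups scored between -3.02 and -1.45. The medullary segment of control section 2 thus lay within the range of cortical segments and below every other medullary tubular segment of the series. Results over all regions are given with and without it, and leaving it out of the medulla means leaving out control section 2.

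The second list held 421 probes higher in macrophage than in tubular sums and 210 higher in tubular sums, from the 10 sections of the other groups. The macrophage-higher probes made up 1.00% to 1.27% of the counts of control segments and 1.17% to 1.47% of those of I1E segments. The tubule-higher probes made up 10.7% to 11.6% in control section 1, 8.35% to 8.63% in control section 2, 8.12% to 8.62% in I1E section 1, and 7.18% to 8.12% in I1E section 2. Control section 2 and I1E section 1 overlapped in this share, and control section 1 stood above all other segments of both groups. In bulk segments, fewer cells of a type and less RNA per cell cannot be told apart.

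**Figure D1:**
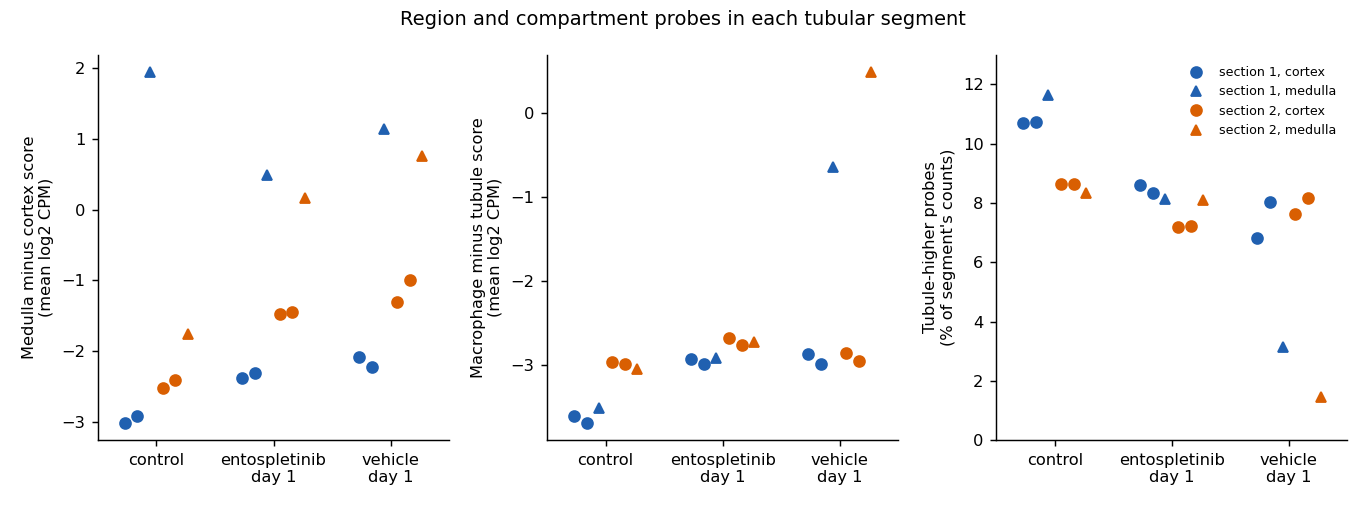
Region score, macrophage minus tubule score (mean log2 CPM of the macrophage-higher minus the tubule-higher probes), and share of counts from tubule-higher probes (%) in each tubular segment of control, entospletinib day 1, and vehicle day 1 kidneys. Circles are cortical and triangles medullary segments. The medullary segment of control section 2, at a region score of -1.76, sat among cortical segments, and the 2 vehicle medullary segments, at -0.64 and 0.49, lay above all others in the macrophage minus tubule score.

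The spread between sections of a group was compared with the distance between the groups. Over all probes and regions, the median absolute log2 difference in CPM was 0.28 between the 2 control sections and 0.21 between the 2 I1E sections. Between groups it was 0.28 and 0.10 for I1E section 1 against control sections 1 and 2, and 0.17 and 0.25 for I1E section 2 against the same. None of these 4 medians between groups exceeded that between the 2 control sections. Differences of more than 2-fold were found for 246 probes between the control sections. Between a control and an I1E section they were found for 292, 143, 679, and 496 probes, in the same order, so 3 of the 4 pairs held more large differences than the pair of controls. In the medulla alone, the median was 0.30 between the control sections and 0.31 between the I1E sections. Between groups it was 0.29 and 0.13 for I1E section 1 against control sections 1 and 2. For I1E section 2 against the same it was 0.22 and 0.36, and only this last value exceeded those within the groups.

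Section sums (n = 2 per group) were tested with edgeR's quasi-likelihood test, in which the 14 tubular sections of the series shared an estimate of the spread. Calls needed an adjusted p below 0.05 together with a change of more than 2-fold (an absolute log2 fold change above 1). On day 1 with entospletinib, 27 of 20175 probes (0.134%) were called higher than in controls and 0 were called lower. Without adjustment, 739 higher and 713 lower probes had p under 0.05, and DESeq2 on the same sums called 76 higher and 27 lower. Over all probes, the log2 fold change had a median of 0.004. A further 108 probes had a log2 fold change above 1 and 164 one below -1 without being called. The number of calls rested on single sections, with 0 calls without control section 1, 1 call (lower) without control section 2, 122 calls (117 higher, 5 lower) without I1E section 1, and 1 call without I1E section 2. The 27 probes had a median log2 fold change of 1.68, 1.75, 2.01, and 1.25 under these 4 omissions, beside 1.70 with all sections. Without either control section the number of calls thus fell while this median changed little. With the medullary segment of control section 2 left out, 28 probes were called higher and 2 lower, and 26 of the 27 were among them.

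The 27 probes rose between 2.00-fold and 71.3-fold, with a median of 3.26-fold. Of these, 8 rose less than 2.5-fold, 11 between 2.5- and 4-fold, and 8 more than 4-fold. Their standard errors, taken from the log2 fold change and the F value of the test, ran from 0.14 to 0.95 (median 0.25) on the log2 scale. The control mean was under 60 CPM for 25 of 27, with a median of 27.4 CPM. The median over all probes was 24.2 CPM, and 18 of the 27 lay above it. Whether these levels lay above background was not tested. All 27 were higher in both I1E sections than in both control sections. In single segments, all 6 I1E values lay above all 6 control values for each of the 27, a pattern found for 1.44% of all probes. The calls were made on the same segments, so the separation describes them and adds no evidence.

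The rise was larger in section 2 than in section 1 of the treated kidneys. Each of the 27 probes had a higher CPM in I1E section 2 than in I1E section 1, with a median ratio of 1.47 and a ratio above 1.5 for 13. Over all probes 35.8% were higher in section 2, with a median ratio of 0.93. In section 1, the 27 probes lay at a median log2 ratio of 1.25 to their control means, and 24 were more than 2-fold above. In section 2 the median was 2.02 and 27 were more than 2-fold above. Together the 27 probes held 0.279% and 0.280% of the counts of the control sections, 1.30% of I1E section 1, and 1.80% of I1E section 2.

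Probe RTS0070030 had the smallest adjusted p. Its level, in CPM after upper quartile normalization, was 54.6 and 50.5 in the control sections and 238.9 and 298.3 in the I1E sections. In single segments it lay between 36.5 and 68.6 CPM in controls (median 48.5) and between 207.0 and 371.6 in I1E (median 241.4). No I1E segment reached down to the control range, and the I1E medullary segment of section 2 was the highest. The log2 fold change was 2.35 (standard error 0.25, edgeR adjusted p = 0.0103), which is 5.12-fold. It was similar in the cortex, at 2.36 (standard error 0.27), and in the medulla, at 2.36 (standard error 0.38). In the left-out cortical segment the probe had 2 counts, or 16.0 CPM by total, below the highest control segment at 61.0.

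Probe RTS0078750 was next. It had 37.7 and 38.5 CPM in the control sections and 130.4 and 234.7 CPM in the I1E sections. Control segments ranged from 33.6 to 42.9 CPM (median 35.5) and I1E segments from 125.1 to 285.6 CPM (median 167.6). The control segments were close together, while I1E section 2 lay at 1.80 times section 1. The log2 fold change was 2.26 (standard error 0.26, edgeR adjusted p = 0.0111), with 2.24 in the cortex and 2.29 in the medulla. Both probes were also called in each region alone, and they were the only 2 probes called in the fit over all regions and in both regional fits.

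**Figure D2:**
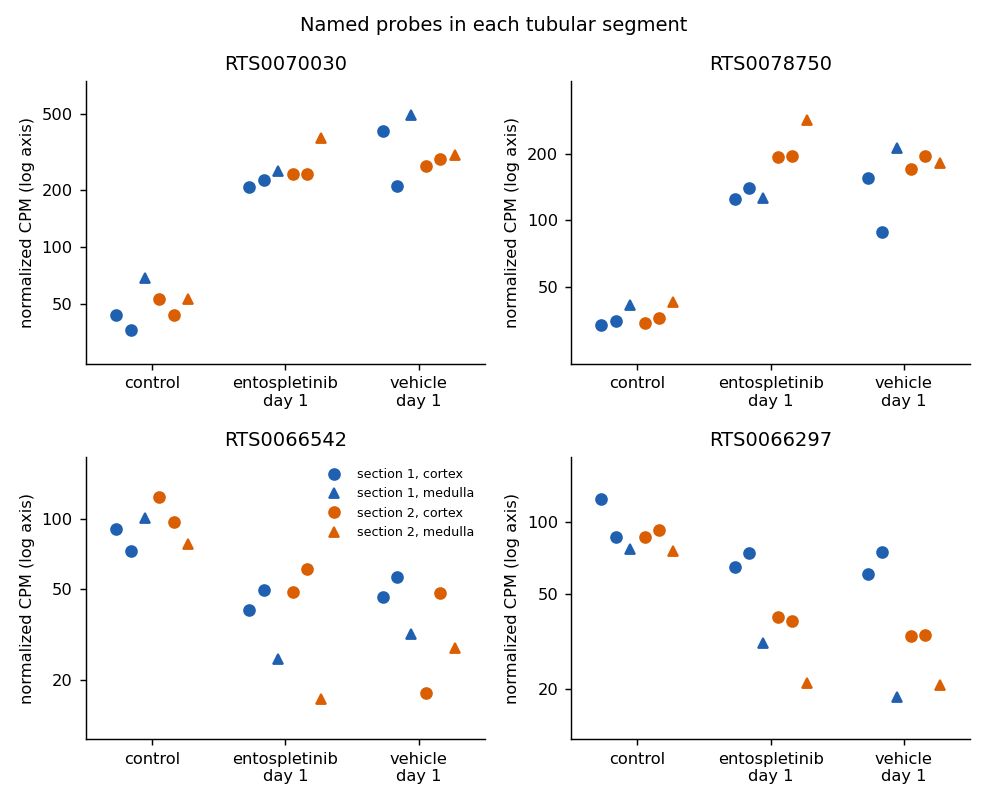
Level of the 4 named probes in each tubular segment (normalized CPM, log axis) of control, entospletinib day 1, and vehicle day 1 kidneys, with circles for cortex, triangles for medulla, and colors for the 2 sections. RTS0070030 and RTS0078750 lay above all control segments in each injured segment, and RTS0066542 and RTS0066297 were lowest in medullary segments of injured kidneys, apart from 1 cortical vehicle segment for RTS0066542.

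The probe with the largest rise among the 27 had 39.0 and 12.6 CPM in the control sections and 771.2 and 2878 CPM in the I1E sections. Its log2 fold change was 6.16 with a standard error of 0.95 (adjusted p = 0.0338 from edgeR), so its size is known poorly. Control segments ran from 7.49 to 66.0 CPM and I1E segments from 174.9 to 4988 CPM. The next largest rise was 7.57-fold. The most abundant of the 27 had 2200 and 1823 CPM in controls and 9439 and 12071 CPM in I1E, which is 2.42 in log2 fold change (standard error 0.34, edgeR adjusted p = 0.0199). This single probe made up most of the share of counts that the 27 held. Without it, the others held 0.085% and 0.092% of counts in control sections and 0.331% and 0.656% in I1E sections.

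Cortical tubules alone gave 11 probes called higher (0.0545%) and 0 called lower, with 456 higher and 480 lower at an unadjusted p under 0.05 and with 44 higher and 6 lower by DESeq2. Their log2 fold changes lay between 1.13 and 2.36 (median 1.86). In the medulla, the same 11 had a median log2 fold change of 1.89, and 10 of 11 exceeded 1. Of the 11, 7 belonged to the 27 called over all regions and 4 were called in the cortex alone. The number was 0 without control section 1, 4 (all lower) without control section 2, 14 without I1E section 1, and 1 without I1E section 2.

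Medullary tubules, with 1 segment per section, gave 7 probes called higher (0.0347%) and 2 called lower (0.00991%). With TMM normalization the numbers were 6 and 3, and DESeq2 called 83 higher and 27 lower. The 7 that rose had log2 fold changes between 1.47 and 3.45 in the medulla and between 1.06 and 2.36 in the cortex, and all 7 belonged to the 27. The number was 4 (all lower) without control section 1, 19 (1 higher, 18 lower) without control section 2, 206 (164 higher, 42 lower) without I1E section 1, and 0 without I1E section 2. The 9 probes, 7 higher and 2 lower, had a median log2 fold change of 2.00 and 1.85 without control section 1 or 2. Without I1E section 1 or 2 it was 2.21 and 1.36, beside 1.95 with all sections. Of the probes called without control section 1 or 2, 0 and 1 belonged to the 9.

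The 2 probes called lower in the medulla were RTS0066542 and RTS0066297. RTS0066542 had 101.9 and 78.5 CPM in the medullary segments of the controls and 24.6 and 16.6 in those of I1E, which is -2.13 in log2 fold change (standard error 0.31, edgeR adjusted p = 0.0368). In the cortex it had 72.9 to 124.9 CPM in control segments and 40.6 to 61.0 in I1E segments, with a log2 fold change of -0.95 (standard error 0.33) that was not called. Over all regions its log2 fold change was -1.44 and its adjusted p 0.0520 by edgeR, the lowest of any falling probe. The I1E segments lay below the control segments in both regions, and further below in the medulla. The difference between the regions did not pass the test (log2 difference -1.20, standard error 0.59, adjusted p = 1.00 from edgeR).

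RTS0066297 had 77.0 and 75.7 CPM in control medulla and 31.1 and 21.2 in I1E medulla, which is -1.55 in log2 fold change (standard error 0.24, edgeR adjusted p = 0.0368). In the cortex its control segments lay between 86.7 and 125.8 CPM and its I1E segments between 38.5 and 74.6, with the lower values in section 2. The cortical log2 fold change of -0.84 (standard error 0.38) was not called. All 6 I1E segments lay below all 6 control segments for both falling probes, as they did for 1.40% of all probes.

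A test of the difference between the medullary and the cortical effect, made within sections, passed for 0 of 20175 probes with edgeR at an adjusted p of 0.05, and 274 probes had an unadjusted p under 0.05. No other tool was run for this test. Of the 27 probes, 23 had a larger log2 fold change in the medulla (median 1.98) than in the cortex (median 1.38). Over all probes the medulla minus cortex effect had a median of -0.05. Log2 fold changes of all probes had a standard deviation of 0.35 in the medulla and 0.28 in the cortex. The 27 were called on sums that include the medulla, and the medullary segment of control section 2 lay among cortical segments. Their part in the larger medullary values was not tested. A log2 fold change above 1 was found for 23 of 27 in the cortex and 26 of 27 in the medulla, beside 0.600% and 1.01% of all probes.

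**Figure D3:**
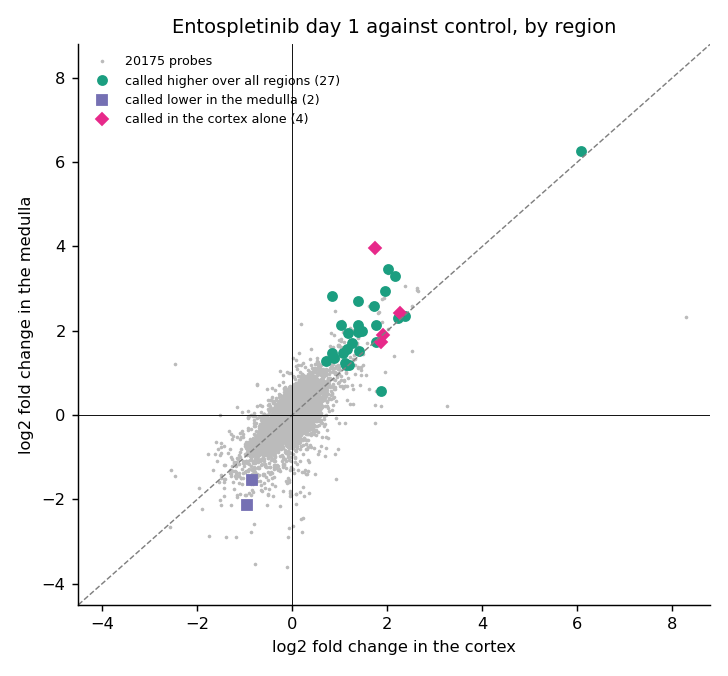
Log2 fold change of entospletinib day 1 against control in the cortex (x axis) and the medulla (y axis) for 20175 probes (grey), with the 27 probes called over all regions, the 2 called lower in the medulla, and the 4 called in the cortex alone marked. The dashed line marks equal change, and 23 of the 27 called probes lie above it. These 27 were called on sums of both regions.

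The probe lists of region and compartment were described by their medians. For the tubule-higher probes the median log2 fold change was -0.57, beside 0.004 over all probes, and 173 of 210 were below 0 and 52 below -1. One of the 210 was called, and it was higher. Over all 20175 probes, 51.0% were above 0, 0.813% were below -1, and 0.134% were called. The cortex-higher probes had a median of -0.64 over all regions, -0.63 in the cortex, and -0.64 in the medulla, with 118 of 131 below 0 over all regions. The medulla-higher probes had a median of 0.08 in the cortex and -0.74 in the medulla. The macrophage-higher probes had a median of 0.09, with 276 of 421 above 0 and 2 called higher. The 2 control sections differed in the region score and in the share of tubule-higher probes, as given above, and the part of that difference in these medians was not tested. Of the 27 called probes, 2 were on the macrophage-higher list (2.09% of all probes) and 1 on the tubule-higher list (210 of 20175 probes). On the region lists (32 and 131 of 20175 probes) there were 0.

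Vehicle-treated kidneys on day 1 were compared with the same control sections, so values of the 27 probes are given side by side without a measure of likeness. Medullary regions supplied 18.7% and 11.5% of the counts of the vehicle sections, far less than in I1E, so sums over all regions mix the regions differently. Over all regions, the log2 fold changes of the 27 ran from 1.00 to 6.16 (median 1.70) with entospletinib and from 0.95 to 5.75 (median 1.67) with vehicle. The medians were 1.38 with entospletinib and 1.39 with vehicle in the cortex, and 1.98 and 2.53 in the medulla. RTS0070030 had 319.2 and 284.9 CPM in the vehicle sections and RTS0078750 had 131.6 and 187.4. The direct test of I1E against I1V called 0 of the 27 and 0 of all 20175 probes by edgeR, with 99 at an unadjusted p under 0.05. The log2 differences of the 27 lay between -0.32 and 0.41, with standard errors of 0.13 to 0.76. A missed threshold does not show that the groups were alike, and for the probe with the largest rise the error would admit a difference of more than 2-fold.

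Between I1E and I1V medulla, 112 probes were called higher (0.555%) and 184 lower (0.912%) with entospletinib. Against controls, 9 probes were called in the medulla of I1E, while 581 (2.88%) were called higher and 633 (3.14%) lower in that of I1V. These numbers are from edgeR. DESeq2 called 110 for I1E against controls, and no other tool was run on the contrasts with I1V. Both comparisons with controls used the medullary segment of control section 2, which lay among cortical segments with a region score of -1.76. The 581 probes, chosen on their vehicle values, had a median medullary log2 fold change of 1.47 with vehicle and 0.49 with entospletinib, and the 633 had -1.60 and -0.57. In the cortex the medians of the same lists were 0.22 with vehicle and 0.28 with entospletinib, and -0.50 and -0.48. The choice on vehicle values moves the vehicle medians away from 0 by itself. The entospletinib values use the same control sections as the choice, so a median on the same side of 0 is no evidence of a shared change. Depth and compartment probes moved with this difference. The vehicle medullary segments held 1863750 and 1235205 counts, the I1E medullary segments 10109432 and 11699181. Macrophage-higher probes made up 2.36% and 4.27% of the counts in vehicle medulla and 1.30% and 1.36% in I1E medulla, and their part in the difference was not tested. Of the 27 probes, 2 were called lower in I1E than in I1V medulla, with a median log2 difference of -0.37 over the 27 (range -1.84 to 0.95) and 5 of 27 below -1 (1.82% of all probes were).

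**Figure D4:**
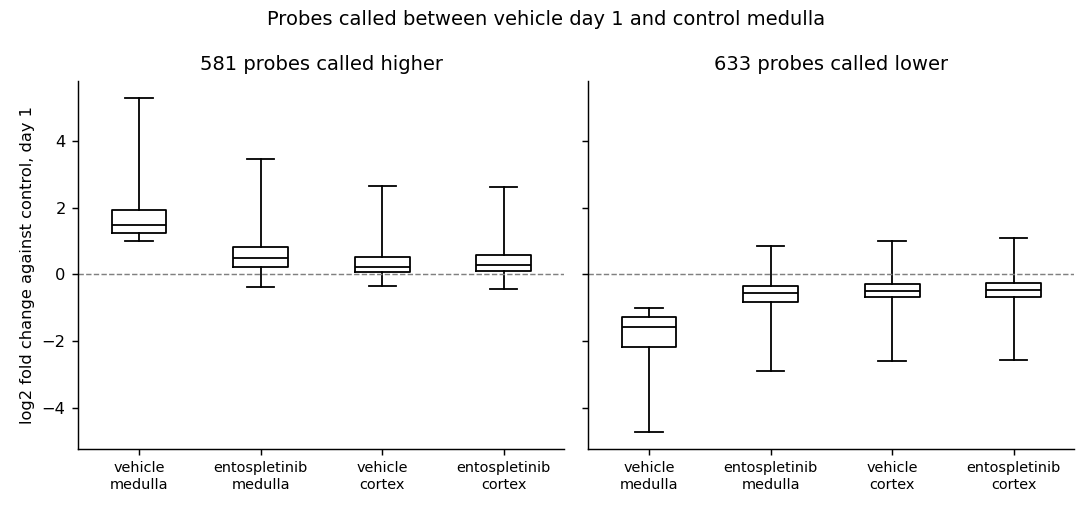
Log2 fold change against control on day 1 of the 581 probes called higher (left) and the 633 called lower (right) in vehicle medulla, in the medulla and cortex of vehicle- and entospletinib-treated kidneys. Boxes span the quartiles, whiskers the full range, and lines the medians, which lay at 0.49 and -0.57 in entospletinib medulla against 1.47 and -1.60 in vehicle medulla.

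On days 7 and 14 after IRI, the 27 probes were near control levels with entospletinib and raised with vehicle. Their median log2 fold change against control was 0.05 on day 7 (range -1.19 to 0.56) and 0.03 on day 14 (range -1.19 to 0.68) with entospletinib. By section, the median log2 ratio to the control mean was 0.06 and 0.04 for day 7 sections and -0.07 and 0.16 for day 14 sections, beside 1.25 and 2.02 for the day 1 sections. With vehicle the day 7 sections had 1.76 and 1.41 and the day 14 sections 1.64 and 1.88. The test of entospletinib against vehicle on these days uses none of the sections in which the 27 were chosen, other than for the shared spread and scaling. Through that spread, a probe that varied little over the 14 sections was called more readily on day 1 and on these days. On day 7, 24 of the 27 were called lower with entospletinib (0.649% of all probes were), with a median log2 fold change of -1.49 beside 0.12 over all probes. On day 14, 21 of the 27 were called lower (3.19% of all probes were), with a median of -1.78 beside 0.33. RTS0070030 had 50.3 and 35.6 CPM on day 7 and 34.3 and 48.5 CPM on day 14 with entospletinib. With vehicle it had 115.7 and 121.4 CPM on day 7 and 183.5 and 226.1 CPM on day 14. RTS0078750 had 34.1 and 36.0 CPM on day 7 and 35.7 and 35.5 on day 14 with entospletinib, and 95.3 and 101.2 on day 7 and 60.4 and 69.2 on day 14 with vehicle. Compartment probes moved with this contrast. Macrophage-higher probes made up 1.68% to 6.53% of the counts of vehicle tubular segments on days 7 and 14 and 0.95% to 1.61% of those with entospletinib. Tubule-higher probes made up 1.29% to 10.3% and 9.34% to 18.2%. Both lists were drawn in part from these sections, and their part in the difference was not tested. For both named probes each entospletinib section of days 7 and 14 lay below each vehicle section of the same day.

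The most abundant of the 27 probes lay below its control level, with 892.9 and 875.7 CPM on day 7 and 774.9 and 992.5 CPM on day 14 with entospletinib, against 2200 and 1823 in controls. Its log2 fold change against control was -1.19 on both days and was not called. With vehicle the same probe had 11149 and 8631 CPM on day 7 and 5585 and 8822 CPM on day 14. No probe of the array was called between entospletinib and control over all regions on day 7 or day 14 by edgeR, with 589 and 403 at an unadjusted p under 0.05, and no other tool was run on these contrasts. The day 14 sections held equal numbers of cortical and medullary regions, unlike those of the controls.

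**Figure D5:**
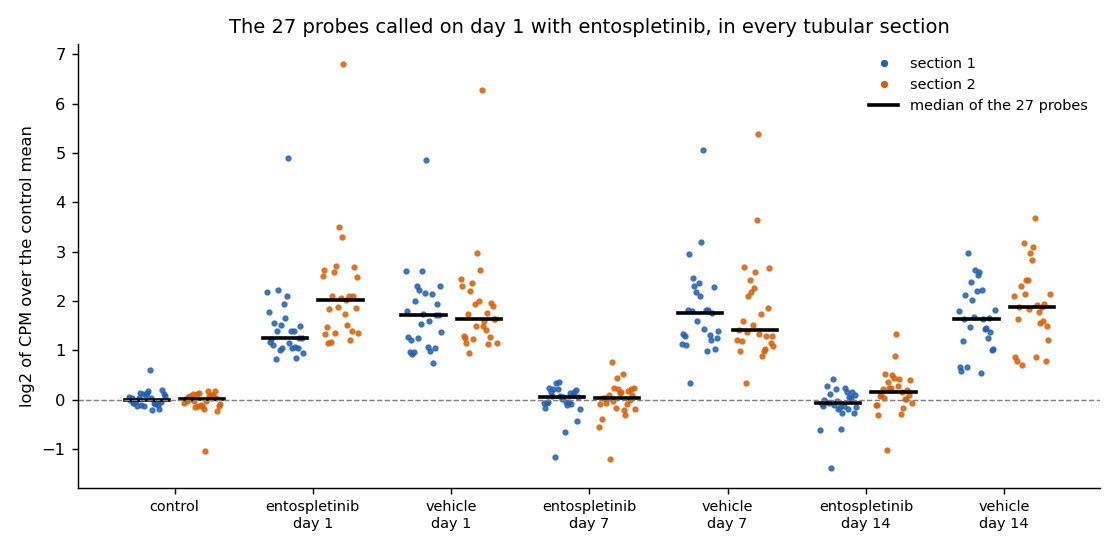
Log2 ratio of CPM to the control mean for the 27 probes called on day 1 with entospletinib, in each of the 14 tubular sections, with the median of the 27 as a black line. Medians lay at 1.25 and 2.02 with entospletinib on day 1, between -0.07 and 0.16 with entospletinib on days 7 and 14, and between 1.41 and 1.88 in the vehicle sections.

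Macrophage segments of the same kidneys were set beside the tubular segments. They held far fewer counts, with 16693 to 146173 in control segments and 75575 to 215899 in I1E segments, so low control values rest on few counts. In control section 1, the medullary segment held 116031 counts and the cortical segments 26729 and 16693. Between I1E and control macrophages, 12 of 18541 probes were called higher (0.0647%) and 1 lower. Of the 27 tubular probes, 7 were called higher there, 20 had a log2 fold change above 1 (5.21% of all probes had), and their median log2 fold change was 1.61. RTS0070030 had 78.0 and 87.7 CPM in control macrophages and 310.5 and 401.3 in I1E macrophages (log2 fold change 2.10, adjusted p = 0.00231 from edgeR). RTS0078750 rose by 1.61 on the log2 scale (adjusted p = 0.0316 from edgeR). RTS0066542 fell from 350.9 and 484.1 to 91.0 and 66.9 CPM (log2 fold change -2.37, adjusted p = 0.00442 from edgeR). In control tubular sections, which were scaled separately, RTS0066542 had 91.5 and 99.5 CPM. Segments of both kinds came from the same regions.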

How the data were processed

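The authors deposited, for each of 94 GeoMx segments, whole UMI counts per probe made by the GeoMx NGS Pipeline (given as version 3.1.1.5 by the file headers, 2.2 by the deposited description, and 1.1 by the labels), before their filtering and upper quartile normalization in R 4.3.1. The labels name build mm10. No 2 segments were identical.

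Tubular counts were summed per section, over all regions and per region. The edgeR filter (minimum count 10, minimum total 15) kept all 20175 probes. Upper quartile scaling was used, followed by the quasi-likelihood test of edgeR 4.0.16 (robust) in R 4.3.3, with Benjamini-Hochberg adjustment over all probes. The fold changes it returned were checked on simulated sums with the same spread for all probes and no added differences between sections. Such sums cannot show how the calls depend on single sections. The medulla minus cortex effect was called on the adjusted p alone. DESeq2 1.42.0, limma 3.58.1, TMM, no filter, fewer sums, thinning, segments as replicates, a replicate block, and omission of each section were alternatives. The run with no filter repeated the main fit, since the filter removed no probe, but is counted among the alternatives. Named probes were the 2 with the smallest adjusted p in each direction with the same sign in cortex and medulla. None was called lower over all regions by edgeR, so the 2 that fell come from the calls in the medulla.

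Region and compartment probe lists came from other sections. The segments, probes, and lists were chosen with earlier results of these data known. Marker lists could not be used without gene names.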

Additional observations from a re-analysis of the deposited data

Results flagged for a closer look

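In the medullary I1E segment of section 2, RTS0070030 stood at 371.6 CPM, and the mean log2 CPM (plus 1) of the 27 called probes at 7.73, both set apart from the other 5 I1E segments by Dixon's test. For RTS0066297, 1 cortical control segment of section 1 stood apart at 125.8 CPM. In all, 14 groups of 6 segments were tested, and chance flags about 1 in 20. The segments of a group share sections, and without I1E section 2 the 27 probes had a median log2 fold change of 1.25.

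In the medulla, 296 probes differed between I1E and I1V (112 higher, 184 lower) by edgeR, which is a test of the difference between the 2 injury effects. The depth and the macrophage-higher probes also differed between these segments, and their part was not tested. No other tool was run on this contrast.

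The cortical I1E segment that was left out for its total of 125254 counts held RTS0078750 at 71.9 CPM by total (9 counts), above the highest control segment at 45.2 CPM. The other named probe that rose had 2 counts there.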

How the results depend on the processing

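Numbers of called probes depended on the tool, the samples in the fit, and single sections. Over all regions the 27 calls became 15 with TMM (14 of the 27 among them), 103 with DESeq2, 91 with the I1E and CTRL sums alone in the fit, 178 with each segment a replicate, and 0 to 122 with each section left out in turn. In the cortex the 11 calls became 50, 129, and 173 under the same settings other than TMM, and 0 to 14 without each section. In the medulla the 9 calls became 110 with DESeq2, 151 with each segment a replicate, and 0 to 206 without each section. The medulla minus cortex effect gave 0 to 4 calls without each section. The other 7 alternatives over all regions gave 19 to 38 calls, but not always of the same probes. The 27 shared 12 with limma-voom over segments, 17 with regions thinned to the same total, 22 with limma on mean log2 CPM, and 25 to 27 with the other 4. Among these 4, the run with no filter repeated the main fit and had to give the same calls. With a section left out, the lone sum of its group took its spread from the other groups.

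Section prefixes were not taken to pair I1E with controls, since the control sections deviated against those of I1E (correlation across probes -0.33), although the 6 injured groups deviated together (0.19 to 0.74). The prefix as a replicate block gave 52 calls over all regions (45 higher, 7 lower), 24 in the cortex, and 32 in the medulla. With the control prefixes exchanged in the replicate block, chosen after seeing the data, the numbers were 72, 36, and 22.

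All 4 named probes kept their direction under every alternative run. RTS0070030 ranged from 2.19 to 2.51 on the log2 scale and missed the threshold in 3 of 17 alternatives (without either control section or I1E section 2), and RTS0078750 ranged from 1.77 to 2.62 and missed it in 2 (without either control section). RTS0066542 missed it in 2 and RTS0066297 in 4 of 11 medullary alternatives. Every probe had counts in all 12 segments, without a background limit, and each group rested on 2 sections with 1 medullary segment each.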
